A study of Homo sapiens with 9 samples.

Results

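Interferon-stimulated genes are the genes that cells switch on when interferon reaches its receptor, and 45 of them, listed by symbol and matched to the Ensembl identifiers of the count matrix, were followed across *CTCFL* overexpression and knockdown. The matrix held 60660 genes. Of the 45 genes, 44 had at least 1 count in some library, and 43 were among the 17794 genes with enough counts to be tested. The 2 that were not tested were *OAS2*, which had counts of 2, 2 and 0 across Control, 19, 1 and 5 across CTCFL-OE and 0, 0 and 2 across CTCFL-KD, and *XAF1*, which had 0 counts in all 9 libraries. A count of 0 still allows up to 3 counts in a library. 3 members passed the minimum without any Control library. *OASL* did so only through CTCFL-OE, *MX2* only through CTCFL-KD, and *RSAD2* through the 3 CTCFL-KD libraries and 1 CTCFL-OE library, so a difference in these genes was partly set by the filter.

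All 9 libraries came from OVCAR3, a human cell line derived from a high-grade serous ovarian carcinoma. *CTCFL*, also called BORIS, is the germline paralog of the chromatin organizer *CTCF*. Control cells were transfected with 2 µg of a plasmid with the bacterial gene *LacZ*, and CTCFL-OE cells with 2 µg of one with the *CTCFL* reading frame. Both were collected after 48 h. CTCFL-KD cells, in which small interfering RNA lowered *CTCFL*, came from an experiment described earlier. Each group had 3 biological replicates, each pooled from 3 technical ones. Because the CTCFL-KD and Control cells received different nucleic acids in different experiments, the loss of *CTCFL* cannot be told apart from the rest of the handling in their comparison.

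Type I and type III interferons signal through receptor-bound JAK kinases to the complex ISGF3, which includes *STAT2* and *IRF9*. ISGF3 binds the interferon-stimulated response element (ISRE) in the promoters of most of these genes, and the gamma-activated site (GAS) serves the response to type II interferon. The products sense viral RNA, cut or sequester it, block viral entry and release, tag proteins with the ubiquitin-like protein *ISG15*, or amplify the signal. Epithelial tumour cells often keep a low, constant output of such genes without added interferon.

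The promoters of the listed genes carried the ISRE core far more often than promoters at large, which is a property of the list and not of these libraries. Promoter windows from RefSeq (GRCh38.p14), each reaching 250 bases upstream and 50 bases downstream of a start site, were found for 35 of the 45 genes. The letters GAAA, any 2 bases and GAAA again, on either strand, which form the repeat at the centre of the ISRE, occurred in at least 1 window of 23 of the 35 genes (65.7%) and in 4.38% of all 27305 genes with a window. The GAS letters TTCNNNGAA, which read the same on both strands, occurred in 11 of the 35 (31.4%) and in 9.38% of all genes. The stretches below show a match, in capitals, for genes whose levels are given in full further on. They span those that fell (*BST2*, *GBP1*, *OAS3*, *HERC5*, *IFI27*, *IFIT5* and the window shared by *PARP9* and *DTX3L*), those that rose (*ISG20* and *IFI6*), *IFIT1* and *ISG15*, and each is written 5′ to 3′ along the strand of its own gene.

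BST2 (chr19:17405735-17405764, minus strand): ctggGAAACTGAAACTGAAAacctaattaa
GBP1 (chr1:89065316-89065345, minus strand): aacgaagtacTTTCAGTTTCatattactct
OAS3 (chr12:112938321-112938350, plus strand): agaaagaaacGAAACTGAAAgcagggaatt
HERC5 (chr4:88456984-88457013, plus strand): ctcattacagTTTCCTTTTCCTTTTCgatt
IFI27 (chr14:94110618-94110647, plus strand): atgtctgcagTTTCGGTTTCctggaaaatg
IFIT5 (chr10:89414513-89414542, plus strand): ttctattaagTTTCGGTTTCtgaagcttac
DTX3L (chr3:122564322-122564351, plus strand): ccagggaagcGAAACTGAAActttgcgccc
ISG20 (chr15:88638937-88638966, plus strand): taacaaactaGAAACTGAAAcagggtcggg
IFI6 (chr1:27672329-27672358, minus strand): ggagagagggGAAAATGAAActctgcagag
IFIT1 (chr10:89392497-89392526, plus strand): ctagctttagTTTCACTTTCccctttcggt
ISG15 (chr1:1013374-1013403, plus strand): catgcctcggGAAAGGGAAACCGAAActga

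In *BST2*, *HERC5* and *ISG15* the capitals cover 2 overlapping matches. The windows of *OAS3*, *HERC5*, *IFI27*, *IFIT5*, *IFI6* and *IFIT1* hold further matches that are not marked. The match in the *DTX3L* window is the same 10 bases of chromosome 3 (122564332 to 122564341) that a *PARP9* window holds on the other strand, since the 2 genes start back to back. Genes with the ISRE letters moved in both directions in CTCFL-KD. Of the 23 tested genes with a match 11 fell and 4 rose, and of the 11 tested genes with windows but no match 3 fell and 2 rose, where 16.8% of all tested genes fell and 21.4% rose. The median log2 fold change in CTCFL-KD was -0.53 with and -0.36 without a match, given here as a description.

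The libraries held 14332622 to 24490080 counts. *CTCFL* itself had 6, 9 and 10 counts across Control, 36, 34 and 72 across CTCFL-OE and 0, 1 and 0 across CTCFL-KD, in the directions of the labels. Its log2 fold change was 2.73 ± 0.48 in CTCFL-OE (adjusted p = 0.0287, quasi-likelihood test of edgeR, adjusted by Benjamini-Hochberg), and it did not pass without Control replicate 1, 2 or 3 (0.169, 0.176 and 0.125). No CTCFL-KD library held more than 1 count, under the limit of 3, and the edgeR adjusted p was 0.0162 (0.0551 without CTCFL-KD replicate 3). *CTCFL* passed the count minimum only through CTCFL-OE, where it was high, so these tests were partly set by the filter. 1 library stood apart: CTCFL-KD replicate 1 had the fewest counts and the lowest TMM scaling factor (0.775), and its log ratio to the other CTCFL-KD replicates fell with transcript length (Spearman's rho = -0.58 over 15327 genes). This touches the short members of the list, and their values are given with and without it.

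Throughout, a level is in counts per 1000000 counts of the TMM-scaled library (CPM), values follow the order of replicates 1 to 3, and the error of a log2 fold change is its SE with 3 libraries in each group. Unless another fit is named, an adjusted p is that of edgeR's quasi-likelihood test, fitted to all 9 libraries and adjusted by Benjamini-Hochberg over all 17794 tested genes. A gene rose or fell where it was under 0.1 in CTCFL-OE vs Control or under 0.05 in CTCFL-KD vs Control, the cutoffs of the study, or under 0.05 in CTCFL-KD vs CTCFL-OE, and it was a DEG where its log2 fold change also passed 1 in either direction. RNA was taken from whole cultures, so fewer cells expressing a gene and less RNA per cell cannot be told apart.

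In CTCFL-KD vs Control, most of the interferon-stimulated genes that changed were lower, and a small set moved the other way. 16 of the 43 tested genes fell (37.2%, against 16.8% of all tested genes) and 7 rose (16.3%, against 21.4%). Those that fell were *RIGI*, *IFIH1*, *IFIT2*, *IFIT3*, *IFIT5*, *OAS3*, *GBP1*, *BST2*, *SAMD9*, *SAMD9L*, *HERC5*, *HERC6*, *USP18*, *PARP9*, *DTX3L* and *IFI27*. Those that rose were *STAT2*, *OAS1*, *MX1*, *MX2*, *RSAD2*, *ISG20* and *IFI6*. DEGs numbered 15, with 5 higher and 10 lower (34.9%, against 23.2% of all tested genes). The median log2 fold change was -0.37 over the 43 genes and 0.08 over all tested genes. The 3 CTCFL-KD libraries lay wholly below the 3 Control libraries for 21 members (48.8%, against 27.6% of all tested genes) and wholly above them for 9 (20.9%, against 28.7%). Without CTCFL-KD replicate 1, 22 members fell and 7 rose, against 23.7% and 26.2% of all genes then tested.

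**Figure D1:**
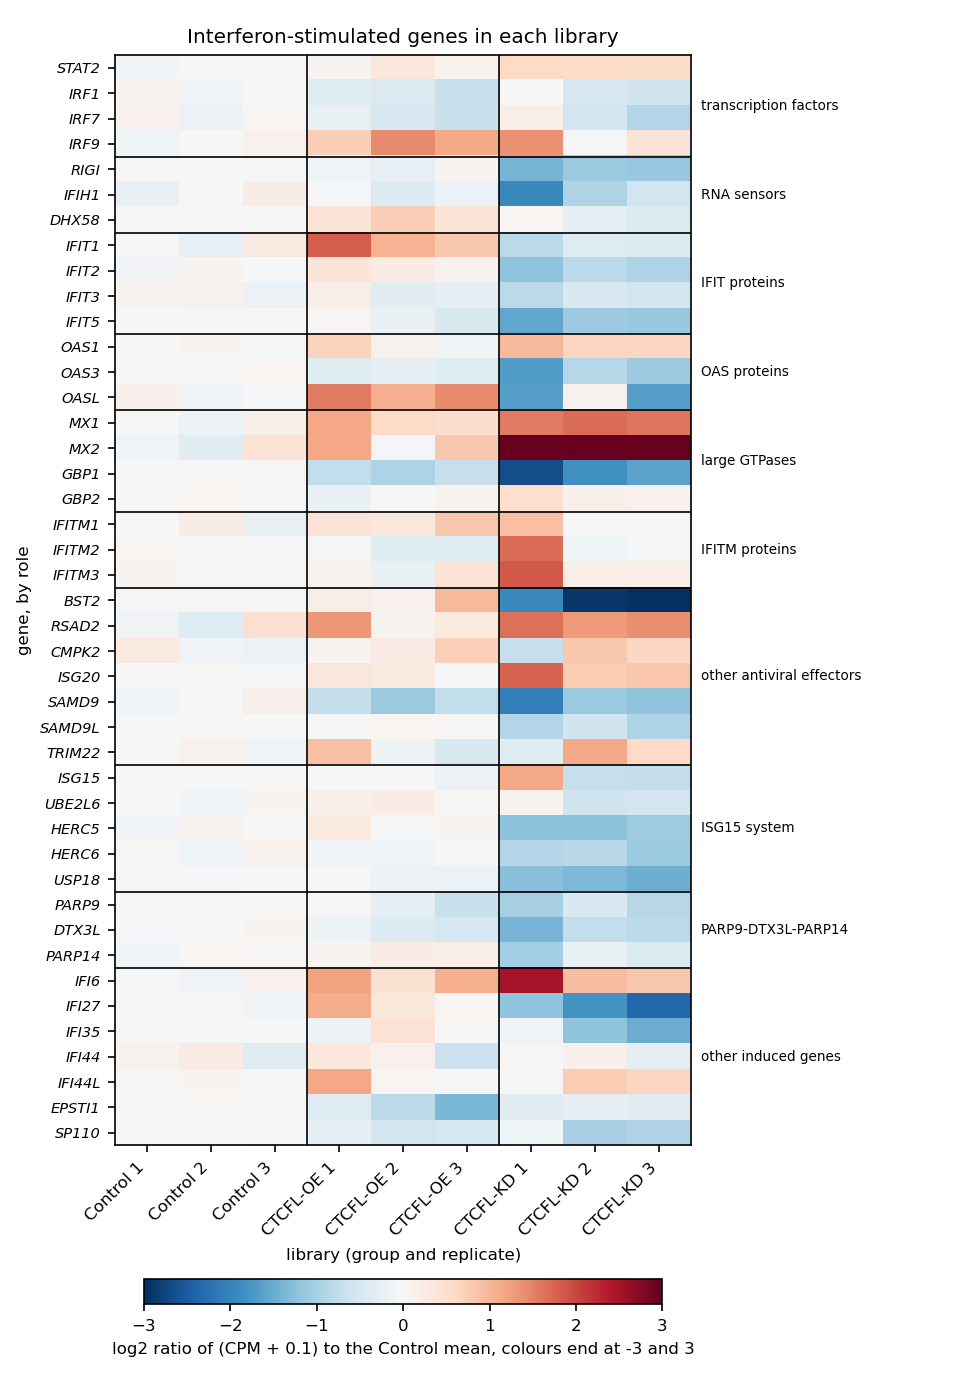
Heatmap of the log2 ratio of CPM (plus 0.1) in each of the 9 libraries to the mean of the 3 Control libraries, for the 43 tested interferon-stimulated genes grouped by role, with lines between groups. Blue cells (lower) fill most rows of the 3 CTCFL-KD columns, where 16 genes fell, while MX1, MX2, RSAD2, ISG20 and IFI6 are red in all 3. The short genes ISG15, IFITM2 and IFITM3 are reddest in CTCFL-KD replicate 1, at 33.1, 143 and 331 CPM.

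In CTCFL-OE vs Control, 1 of the 43 tested members rose (2.33%, against 1.99% of all tested genes) and 0 fell (against 1.16%), by edgeR's quasi-likelihood test. The one that rose was *IFIT1*, which was also the only DEG (2.33%, against 2.07% of all tested genes). Without CTCFL-OE replicate 1 the log2 fold change of *IFIT1* was 0.93, which passed (edgeR adjusted p = 0.0506) but was under the cutoff of a DEG. The median log2 fold change was 0.11 over the members and -0.01 over all tested genes (0.02 and -0.02 without CTCFL-OE replicate 1). At an unadjusted p under 0.05 there were 10 members (23.3%, against 17.7% of all tested genes). The number depended on the fit, and *IRF1*, *IRF7*, *IRF9*, *DHX58*, *OAS3*, *OASL*, *MX1*, *GBP1*, *IFITM1*, *SAMD9*, *DTX3L*, *IFI6*, *EPSTI1* and *SP110* passed in 1 to 8 of up to 20 alternatives each. With edgeR on the 6 libraries of the 2 groups alone, 6 members were higher and 6 lower (12.2% and 7.96% of all genes tested there), and with DESeq2 on the same libraries 5 were higher and 8 lower (12% and 10% of all genes). Without CTCFL-KD replicate 1, which is in neither of the groups compared here, the edgeR counts were 7 higher and 8 lower, against 14% and 13.4% of all genes.

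**Figure D2:**
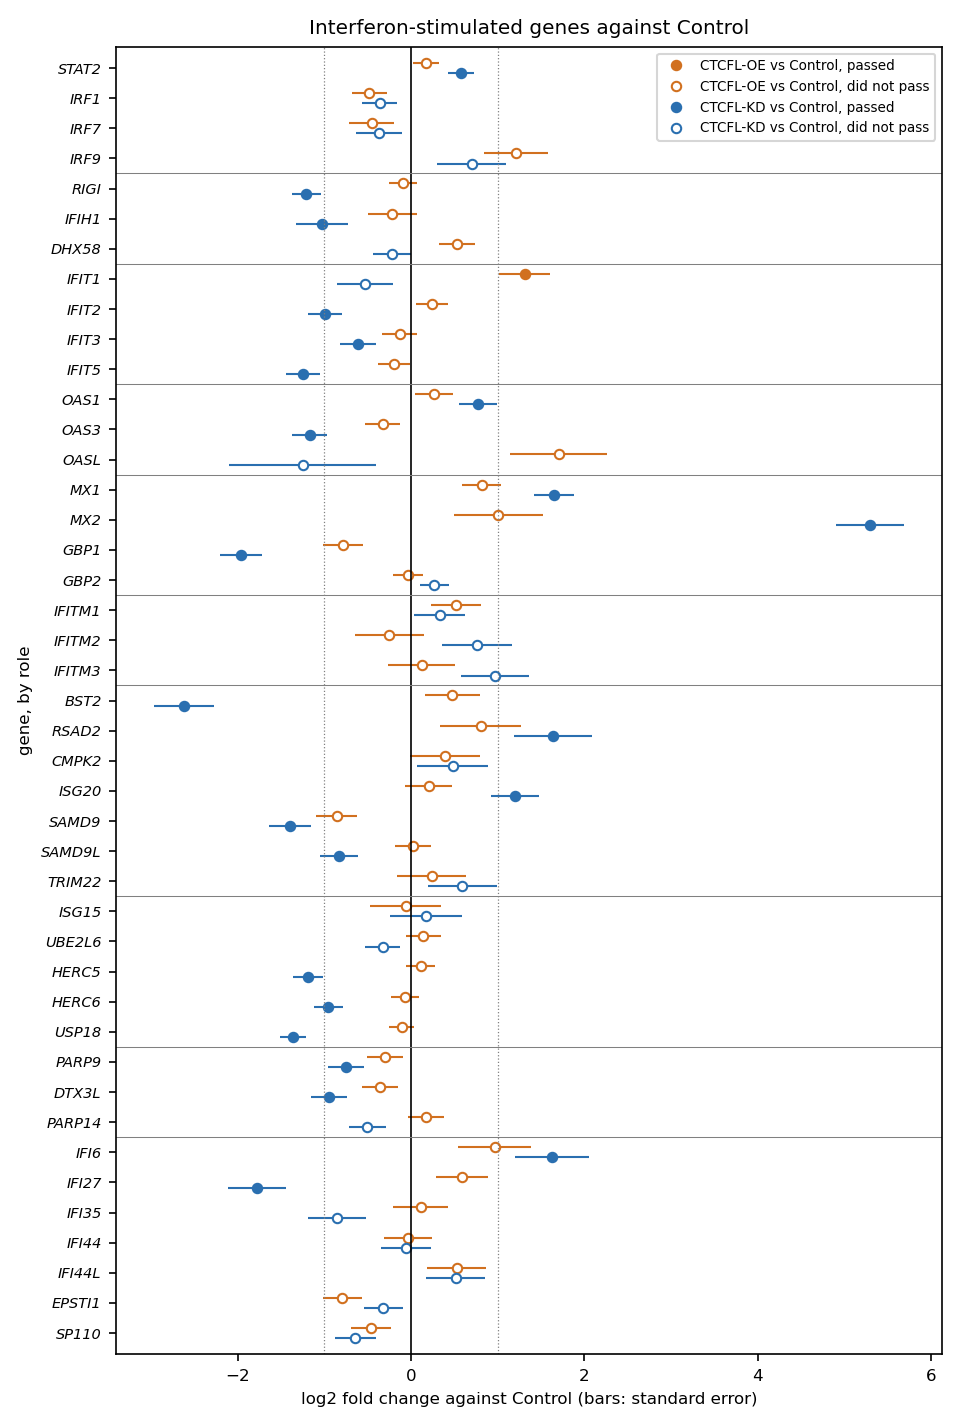
Log2 fold change of each tested interferon-stimulated gene against Control, with SE bars, in CTCFL-OE (orange) and CTCFL-KD (blue). Filled points passed the test, the dotted lines mark a log2 fold change of 1 in either direction, and the only filled orange point is IFIT1 at 1.31, while the blue points reach from -2.62 for BST2 to 5.30 for MX2.

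Of the 4 transcription factors of the list, 1 rose and 0 fell in CTCFL-KD in the fit of all libraries, by edgeR's quasi-likelihood test, close to the 21.4% of all tested genes that rose. *STAT2*, which carries the activation domain of ISGF3, rose from 47.1, 51.4 and 51.2 CPM in Control to 75, 74.6 and 73.4 CPM in CTCFL-KD. The groups did not overlap, and the log2 fold change was 0.58 ± 0.15 (edgeR adjusted p = 0.0119). *IRF9*, the DNA-binding partner of ISGF3, was a low gene, with 0.701, 0.777 and 0.861 CPM in Control, 1.37, 2.25 and 1.84 CPM in CTCFL-OE and 2.16, 0.773 and 1.04 CPM in CTCFL-KD. Its CTCFL-OE libraries all lay above Control, without passing (log2 fold change 1.21 ± 0.37, edgeR adjusted p = 0.14). It passed in 7 of 20 alternatives, among them without CTCFL-KD replicate 1 (edgeR adjusted p = 0.0205) and without CTCFL-OE replicate 1 (0.0691), and 23.9% of its exon bases are shared with other annotated genes on the same strand, so its count is uncertain. *IRF1* and *IRF7*, which drive interferon genes and their targets, did not pass in either comparison, with -0.36 and -0.37 in CTCFL-KD and -0.48 and -0.45 in CTCFL-OE on the log2 scale. Without CTCFL-KD replicate 1, *IRF1* and *IRF7* were lower in CTCFL-KD by -0.57 and -0.73 on the log2 scale, with edgeR adjusted p of 0.00651 and 0.00555, and also passed as lower in CTCFL-OE (0.0312 and 0.0655). The calls of *STAT2* ended without any one of the Control libraries, where its edgeR adjusted p was 0.0732, 0.0512 and 0.0534 without replicates 1, 2 and 3, and without a low-count filter (0.121).

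Of the 3 RNA sensors, 2 fell in CTCFL-KD, where 16.8% of all tested genes fell. *RIGI*, the helicase that detects RNA with 5′ triphosphate ends (chromosome 9, 32455302 to 32526208 in GRCh38), stood at 33.1, 32.6 and 31.9 CPM in Control, 29.6, 27.5 and 34.7 CPM in CTCFL-OE and 12.3, 15.1 and 14.8 CPM in CTCFL-KD. All CTCFL-KD libraries lay far below the lowest Control value, and Control and CTCFL-OE overlapped. The log2 fold change in CTCFL-KD was -1.21 ± 0.17 (edgeR adjusted p = 0.000322). 43.2% of the exon bases of *RIGI* are shared with another annotated gene on the same strand (ENSG00000288684), so its count depends on how such reads were assigned. *IFIH1*, which encodes MDA5, the sensor of long double-stranded RNA (chromosome 2, 162267074 to 162318684), had 5.51, 6.53 and 7.5 CPM in Control, 6.29, 4.81 and 5.72 CPM in CTCFL-OE and 1.62, 3.39 and 4.33 CPM in CTCFL-KD. CTCFL-KD lay below both other groups, with replicate 1 lowest, and the log2 fold change was -1.03 ± 0.30 (edgeR adjusted p = 0.02). This call ended without Control replicate 2 (edgeR adjusted p = 0.0543) or replicate 3 (0.0736). Over 21 alternatives the log2 fold change ran from -1.34 to -0.75, so *IFIH1* was not a DEG in all of them. *DHX58*, which encodes LGP2, a helper of both sensors, did not pass in CTCFL-OE (log2 fold change 0.53) or CTCFL-KD (-0.23).

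The 4 IFIT genes, whose products bind foreign RNA and block its translation, lie side by side on chromosome 10 between positions 89283694 and 89421605. 3 of them fell in CTCFL-KD (against 16.8% of all tested genes), and the remaining one, *IFIT1*, was the gene that rose in CTCFL-OE (against 1.99%). *IFIT1* (89392546 to 89406487) had 2.4, 2.02 and 2.94 CPM in Control, 8.76, 5.07 and 4.3 CPM in CTCFL-OE and 1.35, 1.84 and 1.81 CPM in CTCFL-KD. The CTCFL-OE libraries were all above and the CTCFL-KD libraries all below Control, and CTCFL-OE replicate 1 was the highest of the 9. The log2 fold change was 1.31 ± 0.29 in CTCFL-OE (edgeR adjusted p = 0.0624) and -0.53 ± 0.32 in CTCFL-KD (edgeR adjusted p = 0.21). The CTCFL-OE call ended without Control replicates 1, 2 or 3 (edgeR adjusted p = 0.273, 0.272 and 0.223) or CTCFL-OE replicate 2 (0.179). *IFIT5* (89414568 to 89421605) had 14.6, 14.6 and 14.3 CPM in Control, 14.8, 12.6 and 10.5 CPM in CTCFL-OE and 4.87, 6.72 and 6.57 CPM in CTCFL-KD. Only CTCFL-KD stood clear of Control, with a log2 fold change of -1.25 ± 0.20 (edgeR adjusted p = 0.000692). *IFIT2* and *IFIT3* fell by 0.99 and 0.61 on the log2 scale, with edgeR adjusted p of 0.00269 and 0.039. With the replicate number as a block, *IFIT3* no longer passed (edgeR adjusted p = 0.0607), and it also failed without any one Control library or without CTCFL-KD replicates 2 or 3, up to an adjusted p of 0.122 without Control replicate 2.

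The OAS genes, whose enzymes answer double-stranded RNA by making the activator of RNase L, split in direction although *OAS1*, *OAS3* and *OAS2* are neighbours on chromosome 12. *OAS3* (112938051 to 112976460) had 38.9, 40 and 42.3 CPM in Control, 31.3, 33.8 and 31.4 CPM in CTCFL-OE and 12.5, 22.3 and 18.8 CPM in CTCFL-KD. Both other groups lay below Control, CTCFL-KD the lower, and *OAS3* fell there by 1.17 ± 0.20 on the log2 scale (edgeR adjusted p = 0.0014). Its CTCFL-OE value on the log2 scale was -0.33 ± 0.20 (edgeR adjusted p = 0.414). *OAS1* rose in CTCFL-KD from 7.96, 8.47 and 7.7 CPM to 16, 12.7 and 12.6 CPM, a log2 fold change of 0.77 ± 0.22 (edgeR adjusted p = 0.0185). Leaving out Control replicate 1, 2 or 3 ended this call (edgeR adjusted p = 0.0681, 0.0562 and 0.0755). *OASL*, a catalytically inactive relative on the same chromosome, had 5, 5 and 4 counts across Control, 18, 11 and 12 across CTCFL-OE and 0, 4 and 0 across CTCFL-KD. It did not pass in either comparison with Control in the fit of all libraries. Its log2 fold change was 1.70 ± 0.56 for CTCFL-OE (edgeR adjusted p = 0.159) and -1.25 ± 0.85 for CTCFL-KD (edgeR adjusted p = 0.265). It passed in CTCFL-OE in 4 of 17 alternatives, with the lowest adjusted p at 0.026, and in CTCFL-KD in 1 of 18, without CTCFL-KD replicate 2, the one library of that group with a count (edgeR adjusted p = 0.0155).

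The large GTPases included the largest rise of the list in CTCFL-KD, that of *MX2*, and a large fall, that of *GBP1*. *MX2*, which blocks the nuclear entry of retroviral and herpesviral genomes (chromosome 21, 41361999 to 41409393), had 3, 3 and 5 counts across Control, 11, 3 and 6 across CTCFL-OE and 64, 140 and 121 across CTCFL-KD, or 0.117 to 0.253, 0.157 to 0.502 and 5.77 to 8.32 CPM. The gene was near 0 in Control and CTCFL-OE and clearly present in all CTCFL-KD libraries. Only its CTCFL-KD counts brought it over the count minimum, so the difference was partly set by the filter. The log2 fold change was 5.30 ± 0.39 (edgeR adjusted p = 7.73e-06), and the ratio of summed counts per scaled library was 41.9, with an exact 95% interval of 23.1 to 84.7 that covers counting error only. *MX1*, its neighbour 10627 bases downstream (41420020 to 41470071) and a barrier to influenza viruses and many other RNA viruses, had 2.45, 2.21 and 2.79 CPM in Control, 5.61, 3.81 and 3.63 CPM in CTCFL-OE and 7.49, 8.15 and 7.72 CPM in CTCFL-KD. The 3 groups did not overlap and rank Control, CTCFL-OE, CTCFL-KD. *MX1* rose by a log2 fold change of 1.65 ± 0.23 in CTCFL-KD (edgeR adjusted p = 0.000311), and the value of 0.82 ± 0.23 in CTCFL-OE did not pass (edgeR adjusted p = 0.111), though it did in 8 of 20 alternatives, among them without CTCFL-KD replicate 1 (0.0284) and without CTCFL-OE replicate 1 (0.0984).

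*GBP1*, a guanylate-binding protein that coats intracellular bacteria and a classic target of interferon gamma (chromosome 1, 89051882 to 89065360), went the opposite way. Its levels were 65.9, 66 and 67.7 CPM in Control, 39.7, 35.1 and 41.1 CPM in CTCFL-OE and 10.5, 18.4 and 21.9 CPM in CTCFL-KD. The 3 groups again did not overlap, now with Control highest. *GBP1* fell by 1.97 ± 0.24 on the log2 scale in CTCFL-KD, or 3.91-fold (edgeR adjusted p = 0.000171). In CTCFL-OE the log2 fold change was -0.78 ± 0.23 (edgeR adjusted p = 0.13), which did pass in the edgeR and DESeq2 fits of those 2 groups alone. *GBP2*, its neighbour, did not pass in CTCFL-OE (log2 fold change -0.04) or CTCFL-KD (0.27).

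**Figure D3:**
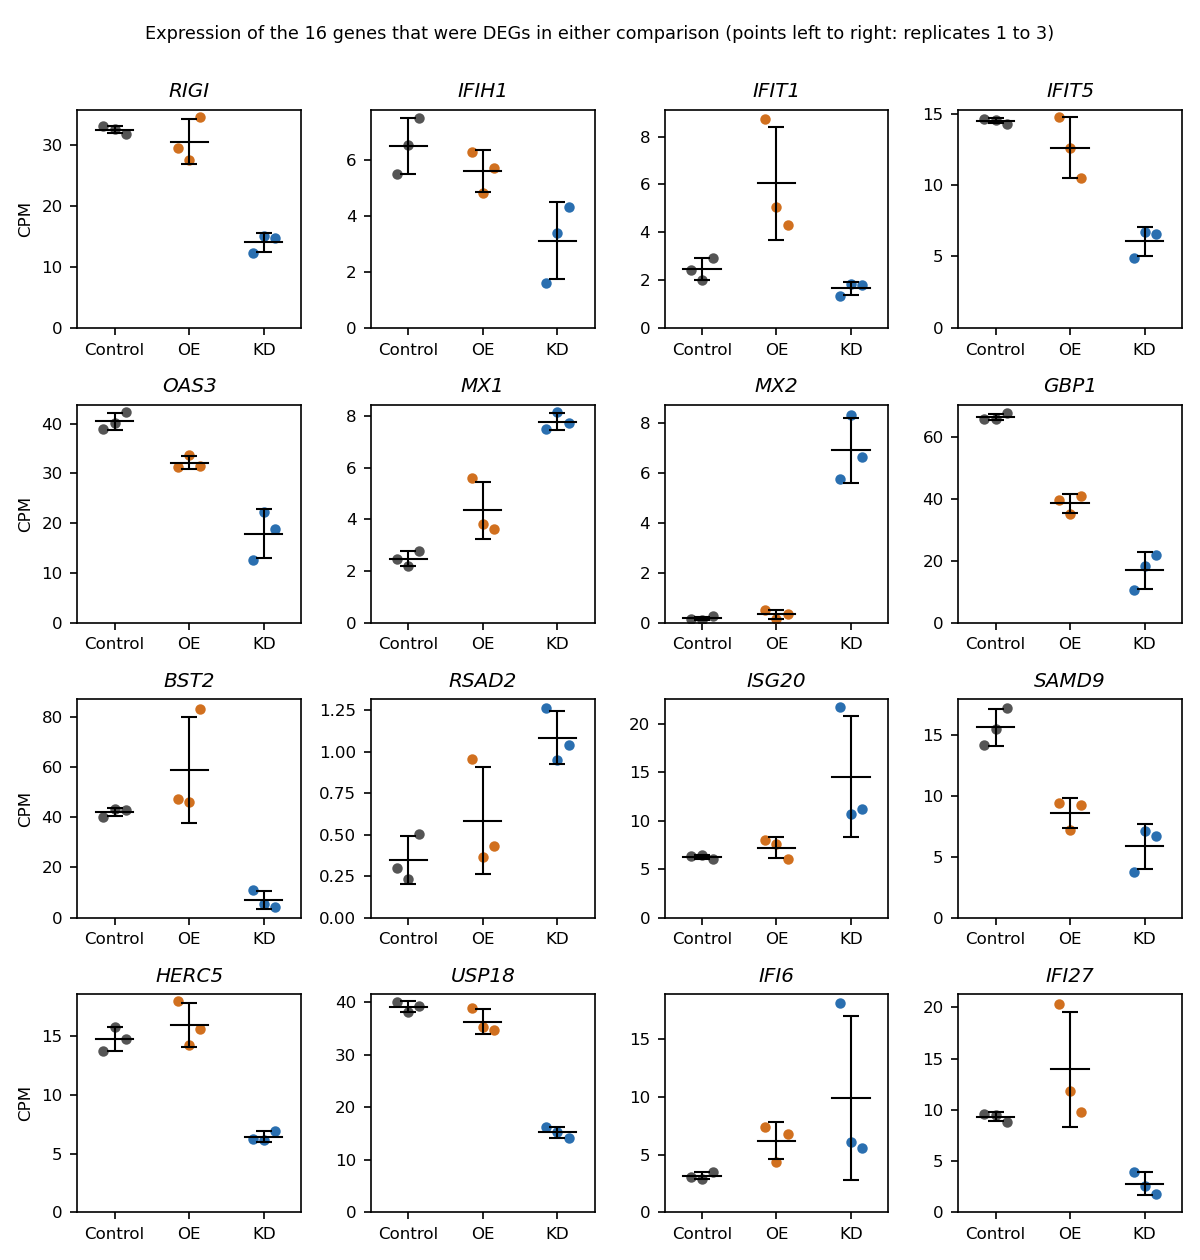
CPM of the 16 interferon-stimulated genes that were DEGs in CTCFL-OE or CTCFL-KD, 1 panel a gene, each with its own linear axis from 0. Points are libraries (replicates 1 to 3 from left to right), horizontal lines are group means and bars the SD over 3 libraries; CTCFL-KD lies below Control in RIGI, IFIH1, IFIT5, OAS3, GBP1, BST2, SAMD9, HERC5, USP18 and IFI27 and above it in MX1, MX2, RSAD2, ISG20 and IFI6.

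The IFITM genes, which encode small membrane proteins that hinder the fusion of viruses with endosomes, included the most abundant member per length. *IFITM3* stood first in Control at 152 ± 8.68 CPM per kb of its canonical transcript (SD, n = 3), followed by *DTX3L* at 52.1 ± 2.68, *IFITM2* at 44.7 ± 1.51, *BST2* at 42.1 ± 1.64 and *UBE2L6* at 42.1 ± 2.09 CPM per kb. *BST2* and *UBE2L6* did not differ from each other beyond their SD, while the other neighbours among these 5 were further apart than the SD of either. *IFITM3* (chromosome 11, 319676 to 329475) had 98.7, 88.5 and 91.1 CPM in Control, 99.9, 80.2 and 123 CPM in CTCFL-OE and 331, 107 and 106 CPM in CTCFL-KD. *IFITM2* (303655 to 309397) had 46.7, 44 and 44.1 CPM in Control, 43.4, 35 and 34.7 CPM in CTCFL-OE and 143, 41 and 44.1 CPM in CTCFL-KD. CTCFL-KD replicate 1 was 3.11 and 3.37 times the mean of the other CTCFL-KD libraries in *IFITM3* and *IFITM2*, and those others lay above Control in *IFITM3* and on both sides of its lowest value in *IFITM2*. Their log2 fold changes in CTCFL-KD were 0.97 ± 0.39 and 0.76 ± 0.40 and did not pass (edgeR adjusted p = 0.0733 and 0.159). Without replicate 1 they were 0.20 and -0.07, and that of *IFITM1* turned from 0.33 to -0.02. The 3 genes are near copies of each other, so reads may be split among them and their counts are uncertain.

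Among the other antiviral effectors, *BST2* had the largest fall of the list. *BST2*, or tetherin, holds budding virus particles at the cell surface (chromosome 19, 17402939 to 17405630). It had 40.3, 43.3 and 42.9 CPM in Control, 47.2, 45.9 and 83 CPM in CTCFL-OE and 11, 5.53 and 4.33 CPM in CTCFL-KD. Every CTCFL-OE library lay above and every CTCFL-KD library far below Control, with CTCFL-OE replicate 3 the highest. *BST2* fell by 2.62 ± 0.35 on the log2 scale in CTCFL-KD, or 6.16-fold (edgeR adjusted p = 0.000281), and by 3.09 without CTCFL-KD replicate 1. Its CTCFL-OE value on the log2 scale was 0.48 ± 0.32 (edgeR adjusted p = 0.458), and ran from 0.14 to 0.62 over 20 alternatives.

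*RSAD2*, which encodes viperin, the enzyme that makes a chain-terminating nucleotide (chromosome 2, 6865557 to 6898239), was a low gene that rose in CTCFL-KD. Its counts were 6, 6 and 10 across Control, 21, 7 and 7 across CTCFL-OE and 14, 16 and 19 across CTCFL-KD, or 0.301, 0.233 and 0.506, 0.958, 0.366 and 0.43, and 1.26, 0.951 and 1.04 CPM. The CTCFL-KD libraries lay above Control, and CTCFL-OE overlapped both groups. The log2 fold change was 1.64 ± 0.45 (edgeR adjusted p = 0.0145), and the call ended without Control replicate 1 (0.0564) or replicate 2 (0.0718). *CMPK2*, which starts head to head with *RSAD2* and supplies its nucleotide substrate, overlapped between all groups and had a log2 fold change of 0.48 ± 0.41 in CTCFL-KD (edgeR adjusted p = 0.375).

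*ISG20*, an exonuclease that degrades viral RNA (chromosome 15, 88635670 to 88656483), had 6.36, 6.45 and 6.03 CPM in Control, 8.03, 7.63 and 6.02 CPM in CTCFL-OE and 21.7, 10.6 and 11.2 CPM in CTCFL-KD. All CTCFL-KD libraries were above the others, replicate 1 by the most. The log2 fold change was 1.20 ± 0.27 (edgeR adjusted p = 0.00587), and 0.80 without replicate 1 (0.00169). *SAMD9*, which restricts poxviruses (chromosome 7, 93099513 to 93118023), had 14.2, 15.4 and 17.2 CPM in Control, 9.39, 7.16 and 9.22 CPM in CTCFL-OE and 3.7, 7.13 and 6.68 CPM in CTCFL-KD. Control was the highest group, and the CTCFL-KD libraries lay below every CTCFL-OE library, narrowly in replicate 2. *SAMD9* fell by 1.40 ± 0.24 on the log2 scale in CTCFL-KD (edgeR adjusted p = 0.00135). The CTCFL-OE value of -0.86 ± 0.24 did not pass in the fit of all libraries (edgeR adjusted p = 0.11) and did in those of the 2 groups alone. Its neighbour *SAMD9L* also fell in CTCFL-KD, by 0.83 on the log2 scale (edgeR adjusted p = 0.0124). *TRIM22*, a ubiquitin ligase, had 10.1 CPM in CTCFL-OE replicate 1 and 11.8 in CTCFL-KD replicate 2 against 4.86 to 5.83 in Control, and passed in neither comparison.

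The *ISG15* system, in which *UBE2L6* and *HERC5* attach *ISG15* to proteins and *USP18* removes it, was lower in CTCFL-KD at its ligase and its protease. *HERC5* (chromosome 4, 88457119 to 88506163) had 13.8, 15.8 and 14.7 CPM in Control, 18, 14.2 and 15.6 CPM in CTCFL-OE and 6.22, 6.18 and 6.96 CPM in CTCFL-KD. The CTCFL-KD libraries were tightly grouped below all others, and the log2 fold change was -1.19 ± 0.17 (edgeR adjusted p = 0.000401). *USP18*, which also dampens signalling at the type I interferon receptor (chromosome 22, 18150118 to 18177397), had 40.1, 38 and 39.3 CPM in Control, 38.9, 35.2 and 34.7 CPM in CTCFL-OE and 16.2, 15.2 and 14.2 CPM in CTCFL-KD. Control and CTCFL-OE overlapped, CTCFL-KD lay well below both, and *USP18* fell by 1.36 ± 0.15 on the log2 scale (edgeR adjusted p = 8.52e-05). *USP18* has a near-identical copy, *USP41*, so reads may be split between them. *HERC6*, next to *HERC5*, fell by 0.95 on the log2 scale (edgeR adjusted p = 0.00137).

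*ISG15* itself depended on 1 library. It had 14.6, 15.2 and 15.2 CPM in Control, 15.1, 14.8 and 13.2 CPM in CTCFL-OE and 33.1, 9.28 and 9.04 CPM in CTCFL-KD. Replicate 1 was above and replicates 2 and 3 below every Control library. The log2 fold change of 0.18 ± 0.42 (edgeR adjusted p = 0.76) became -0.71 ± 0.12 without replicate 1 (edgeR adjusted p = 0.000977). *UBE2L6* (chromosome 11, 57551656 to 57568284) behaved alike, with 51.2, 48.8 and 53.9 CPM in Control, 57.4, 60.3 and 52.1 CPM in CTCFL-OE and 54.8, 33.8 and 34.3 CPM in CTCFL-KD. It differed from Control in CTCFL-KD by -0.33 ± 0.20 on the log2 scale (edgeR adjusted p = 0.227), and -0.59 without replicate 1 (edgeR adjusted p = 0.00129).

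*PARP9*, *DTX3L* and *PARP14*, which form or accompany an ADP-ribosylation and ubiquitination complex, were among the members with the highest summed level, at 576.9 to 626.6 CPM in Control, 494.5 to 582.3 CPM in CTCFL-OE and 264.4 to 426.8 CPM in CTCFL-KD. *DTX3L* (chromosome 3, 122564338 to 122575203) had 288, 297 and 318 CPM in Control, 269, 227 and 207 CPM in CTCFL-OE and 114, 181 and 172 CPM in CTCFL-KD. The groups did not overlap and rank Control, CTCFL-OE, CTCFL-KD. *DTX3L* fell by 0.95 ± 0.21 on the log2 scale in CTCFL-KD (edgeR adjusted p = 0.00537), and *PARP9*, which shares its promoter, by 0.75 ± 0.21 (edgeR adjusted p = 0.0155). The call of *PARP9* ended without Control replicate 2 (0.0515) or replicate 3 (0.0511). *PARP14* had a log2 fold change of -0.50 ± 0.21 and did not pass (edgeR adjusted p = 0.0793).

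Among the other induced genes, *IFI27* and *IFI6*, both small proteins linked to mitochondria and cell survival, moved in opposite directions in CTCFL-KD. *IFI27* (chromosome 14, 94104836 to 94116695) had 9.62, 9.52 and 8.81 CPM in Control, 20.3, 11.8 and 9.77 CPM in CTCFL-OE and 3.97, 2.62 and 1.75 CPM in CTCFL-KD. The 3 groups did not overlap, with CTCFL-OE highest. *IFI27* fell by 1.78 ± 0.34 on the log2 scale in CTCFL-KD (edgeR adjusted p = 0.00218) and by 2.09 without CTCFL-KD replicate 1 (0.000616). Its CTCFL-OE value on that scale was 0.59 ± 0.30 (edgeR adjusted p = 0.338), and 0.21 without CTCFL-OE replicate 1. *IFI6* (chromosome 1, 27666064 to 27672212) had 3.11, 2.91 and 3.49 CPM in Control, 7.39, 4.39 and 6.82 CPM in CTCFL-OE and 18.1, 6.06 and 5.59 CPM in CTCFL-KD. Every library of both other groups lay above Control, and CTCFL-KD replicate 1 was 3.11 times the mean of its fellows. *IFI6* rose by a log2 fold change of 1.62 ± 0.42 in CTCFL-KD (edgeR adjusted p = 0.012), which without replicate 1 was 0.88 (0.00912). 23.1% of its exon bases are shared with *LINC02574* on the same strand.

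The other genes of this group, *IFI35*, *IFI44*, *IFI44L*, *EPSTI1* and *SP110*, passed in neither comparison with Control in the fit of all libraries. *IFI35* had a log2 fold change of -0.86 ± 0.33 in CTCFL-KD (edgeR adjusted p = 0.063), which without CTCFL-KD replicate 1 was -1.38 (0.000664). *SP110*, a nuclear body protein, was closest in CTCFL-KD, with a log2 fold change of -0.65 ± 0.24 (edgeR adjusted p = 0.0526), which passed with the replicate number as a block over all libraries (0.0401) and not with that block over the Control and CTCFL-KD libraries alone (0.0843). *IFI35* and *SP110* each passed as lower in CTCFL-KD in 6 of 21 alternatives, among them DESeq2 on all 9 libraries and on the 2 groups. *EPSTI1* had 14.8, 15.9 and 15.9 CPM in Control and 11.9, 8.88 and 5.9 CPM in CTCFL-OE, without overlap, and a log2 fold change of -0.79 ± 0.23 (edgeR adjusted p = 0.121), which passed in 8 of 20 alternatives, among them without CTCFL-OE replicate 1 (-1.07, adjusted p = 0.0252) and without CTCFL-KD replicate 1 (0.0319). *IFI44L* was at 6.38 CPM in CTCFL-OE replicate 1 and between 2.73 and 2.99 CPM in the other CTCFL-OE libraries and in Control. Over the 23 tested members that were neither DEGs in a comparison with Control nor among the 5 highest per length, the log2 scale ran from -0.79 (*EPSTI1*) to 1.70 (*OASL*) for CTCFL-OE and from -1.25 (*OASL*) to 0.77 (*OAS1*) in CTCFL-KD.

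CTCFL-KD vs CTCFL-OE tests whether the 2 differences from Control differ from each other, since both use the same Control libraries. The CTCFL-KD and CTCFL-OE cells also came from different experiments, so *CTCFL* and the handling cannot be told apart here either. 15 of the 43 members were lower in CTCFL-KD (34.9%, against 11.5% of all tested genes) and 3 were higher (6.98%, against 15.3%), by edgeR's quasi-likelihood test. The higher ones were *MX1*, *MX2* and *ISG20*, of which *MX2* was called in every alternative that tested it. *MX2* passed the count minimum only through CTCFL-KD, the group where it was high, so its difference was partly set by the filter. Without CTCFL-OE replicates 2 or 3, *MX1* (edgeR adjusted p = 0.0739 and 0.0566) and *ISG20* (0.0592 and 0.0723) did not pass, nor did they with edgeR on the 2 groups alone (0.0604 and 0.0634), or *MX1* with DESeq2 on those groups (0.0702). The lower ones were *RIGI*, *DHX58*, *IFIT1*, *IFIT2*, *IFIT5*, *OAS3*, *OASL*, *GBP1*, *BST2*, *SAMD9L*, *HERC5*, *HERC6*, *USP18*, *PARP14* and *IFI27*. 11 of these 15 passed in every alternative that tested them, and *DHX58*, *OAS3*, *SAMD9L* and *PARP14* did not, all 4 failing with edgeR on the 2 groups alone (edgeR adjusted p = 0.0983, 0.055, 0.0785 and 0.123). *PARP14* passed in 11 of 20 alternatives and failed without any one Control or CTCFL-OE library or without CTCFL-KD replicate 3, with edgeR adjusted p of 0.0531 to 0.0996. *DHX58* failed without CTCFL-OE replicate 2 (edgeR adjusted p = 0.0975) and without CTCFL-KD replicates 2 or 3 (0.0599 and 0.0888), and *SAMD9L* without CTCFL-KD replicate 3 (0.0589). The widest gaps were in *BST2* (log2 difference -3.10 ± 0.35, edgeR adjusted p = 0.000155), *OASL* (-2.95 ± 0.72, adjusted p = 0.0117, tested only through its CTCFL-OE counts) and *IFI27* (-2.37 ± 0.34, adjusted p = 0.000584) on the low side and *MX2* (4.30 ± 0.36, adjusted p = 2.79e-05) on the high side. The difference of *IFI6*, 0.66 ± 0.41, did not pass (edgeR adjusted p = 0.256), nor did that of *SAMD9*, -0.54 ± 0.24 (edgeR adjusted p = 0.123).

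Within groups, the spread of the members was close to that of all tested genes. The median coefficient of variation over 3 libraries was 5.06% in the Control, 16.3% in the CTCFL-OE and 27.1% in the CTCFL-KD group, against 7.13%, 18.2% and 27.8% for all tested genes. CTCFL-OE replicate 1 was the highest CTCFL-OE library for 27 of the 43 members (62.8%, against 41.3% of all tested genes), *IFIT1*, *OAS1*, *MX1*, *RSAD2*, *TRIM22*, *IFI27* and *IFI44L* among them. CTCFL-KD replicate 3 was the highest CTCFL-KD library for 3 members (6.98%, against 28.5%).

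In CTCFL-KD, replicate 1 differed from its fellows by transcript length. Of the 9 tested members with a canonical transcript under 1500 bases, 9 were higher in replicate 1 than in the mean of replicates 2 and 3, with a median ratio of 2.43. Of the 34 longer members, 13 were higher and the median ratio was 0.864. Over all tested genes the same held more weakly, with 71.6% of 4385 shorter genes higher (median ratio 1.66) and 41.2% of 13351 longer ones (median ratio 0.877). Without replicate 1, *ISG15*, *UBE2L6*, *IRF1*, *IRF7*, *IFI35* and *SP110* also fell in CTCFL-KD vs Control, and each of the 23 members that passed with it did so again.

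**Figure D4:**
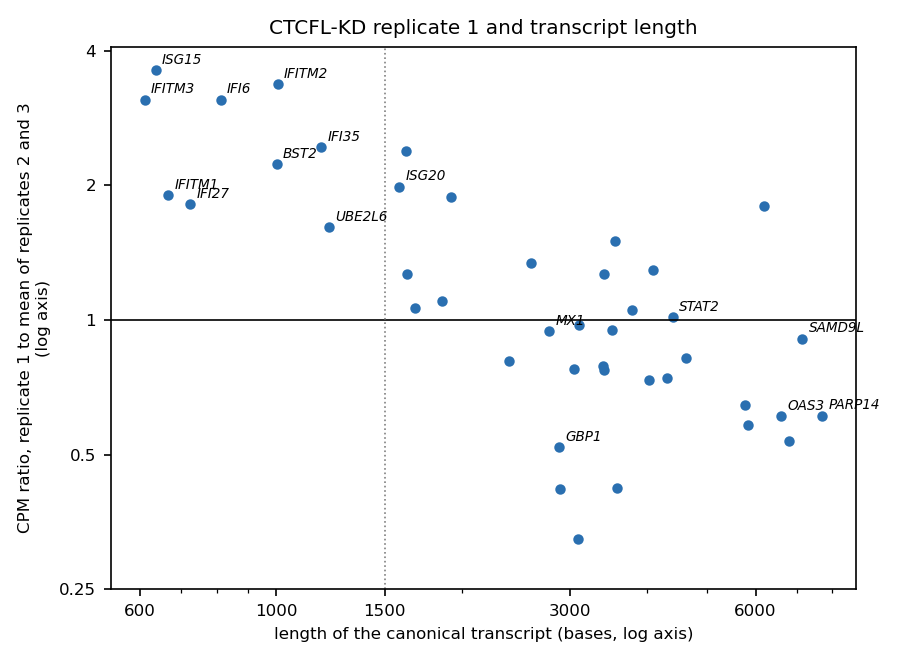
CPM in CTCFL-KD replicate 1 divided by the mean of replicates 2 and 3, against the length of the canonical transcript, for 42 of the 43 tested interferon-stimulated genes (both axes logarithmic; OASL, with a ratio of 0, is not drawn). The horizontal line marks equal levels and the dotted line 1500 bases; the 9 genes to its left all lie above equality, up to 3.62 for ISG15, and 13 of those to its right do.

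Of 58 other genes of the interferon pathway, 29 were tested, of which 5 rose (17.2%, against 21.4% of all tested genes) and 8 fell (27.6%, against 16.8%) in CTCFL-KD and 0 passed in CTCFL-OE. The ligands were all but silent. Of 21 interferon genes, 20 had no count above 4 in any library, and *IFNB1* had 0, 0 and 0 counts across Control, 1, 2 and 0 across CTCFL-OE and 0, 0 and 1 across CTCFL-KD. The one ligand tested, *IFNE*, an epithelial type I interferon, had 1, 10 and 4 counts in Control and 14, 20 and 16 in CTCFL-KD, where it rose (log2 fold change 2.25 ± 0.61, edgeR adjusted p = 0.0145); it passed the minimum only through CTCFL-KD and 1 CTCFL-OE library. The kinase *JAK1* fell by 0.95 on the log2 scale in CTCFL-KD (edgeR adjusted p = 0.00741).

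Of the 9 tested receptors and kinases, 3 rose in CTCFL-KD (33.3%, against 21.4% of all tested genes) and 1 fell (11.1%, against 16.8%), and the 3 that rose were receptor subunits. *IFNLR1* and *IL10RB*, which together bind the type III interferons, rose by log2 fold changes of 1.24 ± 0.27 and 1.60 ± 0.33 (edgeR adjusted p = 0.00486 and 0.00354), and *IFNGR1* by 0.62 (0.0332). Of 12 tested genes of nucleic acid sensing, 5 fell (41.7%, against 16.8% of all tested genes) and 1 rose (8.33%). The kinases *TBK1* and *IKBKE*, which activate *IRF3*, fell by 1.06 ± 0.16 and 1.02 ± 0.19 on the log2 scale (edgeR adjusted p = 0.000504 and 0.00228), and *IRF5* by 1.61 ± 0.25 (0.000677). *ZBP1*, a sensor of Z-form nucleic acid, had 5, 8 and 3 counts across Control, 12, 10 and 2 across CTCFL-OE and 46, 62 and 49 across CTCFL-KD, and rose there by a log2 fold change of 3.81 ± 0.43 (edgeR adjusted p = 0.000101); it passed the count minimum in no Control library, so it was tested because of the other groups. The chemokine *CXCL10* had 15, 23 and 15 counts across Control, 11, 9 and 14 across CTCFL-OE and 0, 4 and 4 across CTCFL-KD, and fell (edgeR adjusted p = 0.009). It passed the minimum in the 3 Control libraries, 1 CTCFL-OE library and no CTCFL-KD library.

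**Figure D5:**
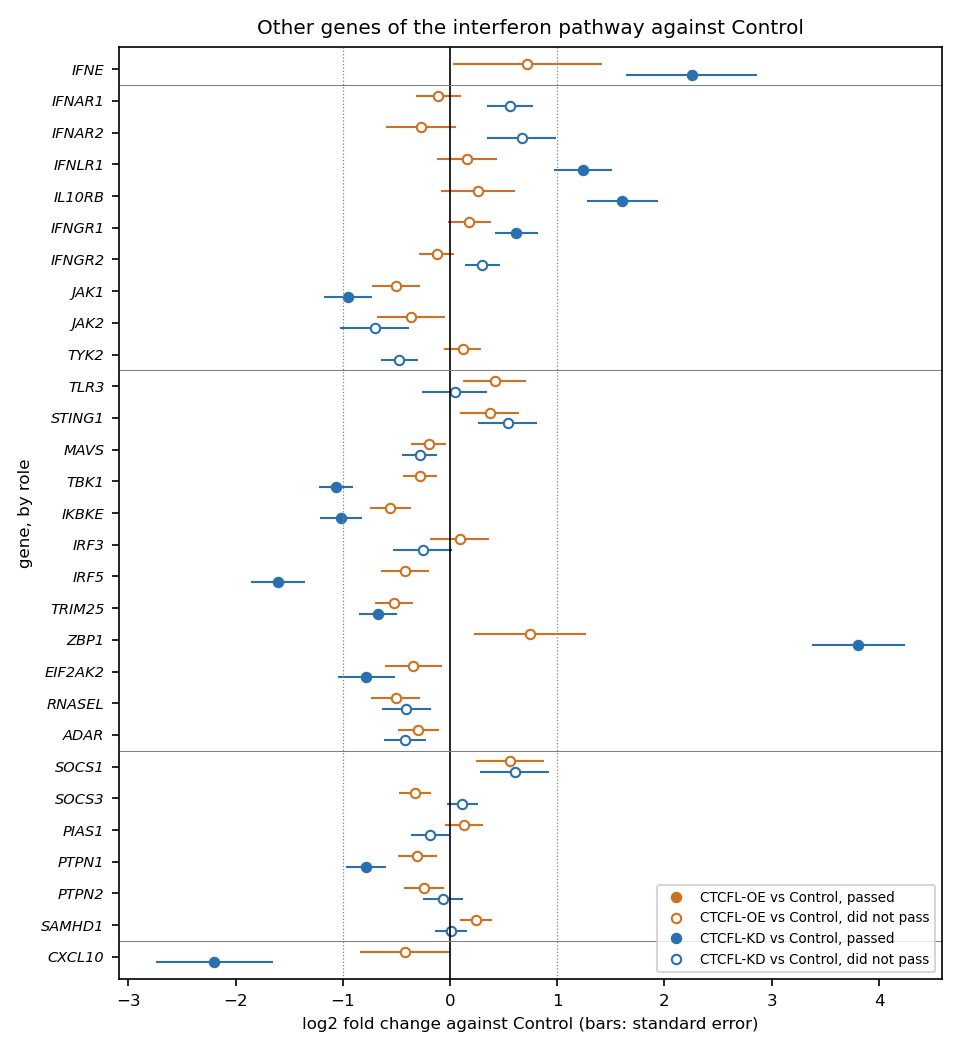
Log2 fold change against Control, with SE bars, of the 29 tested pathway genes that are not on the list of 45, by role: ligand, receptors with kinases, nucleic acid sensing, negative regulators and chemokine. Filled points passed the test; all orange (CTCFL-OE) points are open, and the filled blue (CTCFL-KD) points run from -2.20 for CXCL10 to 3.81 for ZBP1.

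The cultures showed the markers of the line. *PAX8*, *WT1*, *MUC16*, *EPCAM*, *KRT7*, *KRT8*, *KRT18* and *CDH1* summed to 5155 to 5278 CPM in Control, 4352 to 4856 CPM in CTCFL-OE and 8775 to 14112 CPM in CTCFL-KD, where 5 of the 8 rose and 2 fell (against 21.4% and 16.8% of all tested genes). 7 leukocyte markers summed to 0.20 to 0.557 CPM in Control, 0.502 to 1.17 CPM in CTCFL-OE and 2.08 to 3.52 CPM in CTCFL-KD. *CD14* was the only one of these with enough counts to be tested and rose in CTCFL-KD, from 4, 2 and 2 counts to 34, 22 and 25. It passed the count minimum only through CTCFL-KD, so this rise was partly set by the filter. *FCGR3A* had 0 counts in all 9 libraries and *CD3E* at most 1. The 3 markers of plasmacytoid dendritic cells, the main makers of type I interferon in blood, stayed at or under 1.25 CPM in sum, with *CLEC4C* at 0 in Control and CTCFL-KD and *LILRA4* at 0 counts in Control and CTCFL-OE and 2, 7 and 6 counts across CTCFL-KD. The 7 fibroblast markers summed to 26.8 to 32.8 CPM in Control, 23.9 to 43.6 CPM in CTCFL-OE and 36.2 to 41.6 CPM in CTCFL-KD, where *COL1A2* had 156, 239 and 247 counts against 0, 0 and 0 in Control. *COL1A1*, which made up most of the Control sum, was at 26.1, 22.4 and 21.3 CPM in CTCFL-KD against 32, 30.9 and 26.4 CPM in Control and did not pass (log2 fold change -0.36, edgeR adjusted p = 0.221). The 3 endothelial markers summed to 6.79 to 7.06 CPM in Control, 8.23 to 10.3 CPM in CTCFL-OE and 4.49 to 5.29 CPM in CTCFL-KD. Of these, *VWF* rose in CTCFL-OE (log2 fold change 0.71, edgeR adjusted p = 0.0951), and *PECAM1* fell in CTCFL-KD (-2.56, edgeR adjusted p = 0.000511), where *VWF* had -0.11 and did not pass. The part of any of these in the values above was not tested.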

How the data were processed

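Poly(A) RNA of 9 OVCAR3 libraries in 3 groups (Control, CTCFL-OE, CTCFL-KD) was sequenced by the authors with a stranded kit. The authors trimmed reads with Trimmomatic, aligned them to GRCh38 and deposited the unnormalized featureCounts counts per gene. The annotation release, strand setting and handling of reads with several alignments are not given in the sources used here. The single-library files and the matrix did not differ in any count. Groups came from the sample labels.

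Symbols, positions and canonical transcript lengths came from GENCODE release 44, which named 60419 of 60660 identifiers. Genes passing filterByExpr were scaled by TMM and fitted to all 9 libraries with the group as factor by glmQLFit (edgeR 4.0.16, R 4.3.3, robust), and tested by the quasi-likelihood F test of edgeR, adjusted by Benjamini-Hochberg. DESeq2, the tool of the study, was an alternative, run here in version 1.42.0. The same fit was tested on simulated counts with 200 changed genes. Levels and figures were made with pandas 2.3.3 and matplotlib 3.10.9. Counting intervals and the limit of 3 counts cover counting error only, since reads carried no molecular identifiers.

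The members, gene lists and cutoffs were chosen with earlier results of these data known. Values in every library were given for the 16 members that were DEGs in either comparison with Control and the 5 with the highest Control level per kb. *IRF9*, *OASL* and *ISG15* were given so, and *STAT2*, *OAS1* and *EPSTI1* in 2 of the groups, after their values were seen. Of the pathway lists, DEGs were named, and *IFNB1*, *JAK1* and *IFNGR1* after their values were seen. Replicate numbers were checked for pairing over 15371 genes: deviations from the group means, taken between libraries of the same number, correlated for Control and CTCFL-KD at 0.251, 0.151 and 0.173, and those of Control and CTCFL-OE at -0.032, 0.188 and -0.047. The first 3 were over 0.1, and 0.15, 0.141 and 0.0992 once the trend with transcript length was removed. The pairing comes from the data, since the design names no shared batch. The fit reported has no block, and a block changed the calls of *IFIT3* and *SP110*, where its value is given. Alternatives changed the scaling, the filter, the tool, the block, a correction for transcript length and the libraries included. 1 pathway gene and 1 leukocyte marker are not reported here.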

Additional observations from a re-analysis of the deposited data

How the results depend on the processing

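Of the 23 members that passed in CTCFL-KD vs Control, 17 passed in the same direction in every alternative that tested them, 13 of the 16 that fell and 4 of the 7 that rose; the exceptions were *STAT2*, *IFIH1*, *IFIT3*, *OAS1*, *RSAD2* and *PARP9*. Leaving out single libraries gave 4 to 9 members higher and 13 to 22 lower in CTCFL-KD vs Control, against 15% to 26.2% and 10.8% to 23.7% of all genes tested. With the replicate number as a block 7 were higher and 16 lower (20.5% and 16.4% of all genes), *IFIT3* being lost and *SP110* gained, and it changed no other call of a member in this comparison. The same block without the CTCFL-OE libraries, chosen after seeing the data, gave 7 higher and 15 lower (18.7% and 14%).

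Counts in CTCFL-OE vs Control were unstable, and their cause was not tested. Members higher, each with the share of all genes called alike, numbered 2 with upper-quartile scaling (2.88%), 5 with no low-count filter (2.97%), 2 with at least 10 counts in every library (2.24%), 3 with a length trend offset (5.46%), 2 with that offset and the replicate block (4.15%), 3 with DESeq2 on all 9 libraries (4.83%), 6 with edgeR (12.2%) and 5 with DESeq2 (12%) on the 2 groups compared, and 0 to 7 when single libraries were left out (0.0927% to 14%). Members lower numbered 3, 3, 3, 3, 6 and 8 with no filter, the length offset, that offset with the block, DESeq2 on all libraries, edgeR and DESeq2 on the 2 groups (1.04%, 3.32%, 2.61%, 2.80%, 7.96% and 10% of all genes), and 0 to 8 without single libraries (0.142% to 13.4%). DEGs numbered 4 with no filter (2.18% of all genes), 2 with the length offset (3.46%), 2 with DESeq2 on all libraries (3.02%), 4 and 2 with edgeR and DESeq2 on the 2 groups (4.88% and 4.38%), and 0 to 3 without single libraries (0.24% to 6.45%). In CTCFL-KD vs CTCFL-OE, 5 members were higher with no filter (8.77% of all genes), 5 with the length offset and block (17.4%), 1 with edgeR on the 2 groups (9.67%) and 1 to 6 without single libraries (9.96% to 21%). Those lower numbered 11 with edgeR on the 2 groups (5.87%) and 13 to 21 without single libraries (7.38% to 18.7%).

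*CTCFL* did not pass in CTCFL-OE without any one Control library (log2 fold change 2.59, 2.65 and 2.95 without replicates 1, 2 and 3, edgeR adjusted p = 0.169, 0.176 and 0.125), nor in CTCFL-KD without CTCFL-KD replicate 3 (-3.21, edgeR adjusted p = 0.0551). Without single libraries its range was 2.13 to 2.98 in CTCFL-OE and -5.88 to -3.21 in CTCFL-KD. Likewise, *IFITM2* ranged from -0.073 (without CTCFL-KD replicate 1) to 1.06 in CTCFL-KD, and *IFITM3* from -0.049 (without CTCFL-OE replicate 3) to 0.26 in CTCFL-OE, both changing sign. With depths of 14332622 to 24490080 counts, 3 counts correspond to 0.117 to 0.271 CPM, which limits what can be said of *OAS2*, *OASL*, *XAF1* and the Control levels of *MX2*.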
